A study of Mus musculus with 11 samples.

Results

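The IGF binding proteins *Igfbp2* to *Igfbp7*, the ligand *Igf1* and the receptors *Igf1r* and *Igf2r* were followed in the eyes of *miR-211*-/- mice. These 9 genes, of 38393 listed, were chosen by family membership and by a measured value of these same libraries, the lower level of *Igfbp3* in the mutant eyes. The difference between the genotypes is therefore given for these 9 genes as a description, with no p-value. RNA came from eyes without cornea and lens, so that sclera, choroid, ciliary body, retinal pigment epithelium (RPE) and retina were sampled together. The wild-type group (WT) had 5 libraries and the *miR-211*-/- group (KO) had 6, all from C57BL/6 mice aged 1 to 2 months. The KO mice carry a germline deletion of the miR-211 precursor, so that every cell lacks it. By the study's methods all KO animals were male, and the WT animals were of both sexes. All values are from bulk tissue, in which fewer cells of a type and less RNA per cell cannot be told apart.

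IGF-1 and IGF-2 are secreted peptides that act through the tyrosine kinase receptor IGF1R, upstream of the PI3K-AKT-mTOR and MAPK cascades. IGF2R, the cation-independent mannose-6-phosphate receptor, takes up IGF-2 and delivers it to lysosomes. The high-affinity binding proteins hold the ligands outside the cell and thereby limit or prolong their action, and proteases release the ligands again. IGFBP7 binds IGFs only weakly and is found in vascular basement membranes. IGF signalling is known in the eye for roles in vascular growth and neuronal survival.

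The deleted miRNA and miR-204 are shown first because they share a seed, so that a seed match cannot tell one from the other. Capitals mark the seed, bases 2 to 8, in the mature sequences from RefSeq (GRCm38.p6), which lie at chr7:64205831-64205852 (miR-211-5p) and chr19:22750610-22750631 (miR-204-5p), both on the plus strand. The 22-base sequences differ at 1 base outside the seed.
mmu-miR-211-5p: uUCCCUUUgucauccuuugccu
mmu-miR-204-5p: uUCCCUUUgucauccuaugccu

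The complement of the seed, AAAGGGA, was searched on the transcript strand of the longest annotated 3′ UTR of each gene (Gencode M21, GRCm38), and AAAGGGAA was counted as the longer form of the same match. *Igfbp5*, *Igf1*, *Igf1r* and *Igf2r* held at least 1 match. The matches, in capitals, lie in *Igfbp5* at chr1:72860217-72860244 and chr1:72860155-72860182 (minus strand), in *Igf1* at chr10:87933649-87933676 and chr10:87935072-87935099 (plus), in *Igf1r* at chr7:68228900-68228927 (plus) and in *Igf2r* at chr17:12683585-12683612 (minus).
Igfbp5, first: aacatggagcaacacAAAGGGAgagcaa
Igfbp5, second: tggctgcgggcacagAAAGGGAtgcctc
Igf1, first: actcaagattgatagAAAGGGAcattta
Igf1, second: tatctactgacaaagAAAGGGAAgagtt
Igf1r: ctagcctctgcccttAAAGGGAAaagga
Igf2r: taacaaaactgcttcAAAGGGAAgagtt

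These letters were absent from the 3′ UTRs of *Igfbp2*, *Igfbp3*, *Igfbp4*, *Igfbp6* and *Igfbp7*. Of 14511 expressed genes with a 3′ UTR, 16.6% held AAAGGGA and 7.13% held AAAGGGAA. Long 3′ UTRs hold the letters more often. Among genes with a 3′ UTR within 25% of the same length, the match was present in 53.3% for *Igf1r* (7267 bases), 48.1% for *Igf1* (6308 bases), 39.7% for *Igfbp5* (4445 bases) and 12.8% for *Igf2r* (1304 bases). For *Igfbp3*, with 1435 bases and no match, that share was 14.0%. A match of letters describes the sequence and does not show that a miRNA binds there.

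Libraries held 22224813 to 28171160 counts in WT and 20282241 to 36317673 in KO, and levels are given in CPM, counts scaled to a library total that is itself adjusted by edgeR's TMM factor, so that 1 CPM stood for 19.96 to 36.4 counts. *Mir211* was at 0 counts in all 11 libraries, so these counts cannot show its loss, and its host gene *Trpm1* was at 331 to 496 CPM in WT and 413 to 465 CPM in KO. *Xist* was at 796 to 1636 CPM in WT replicates 1, 3 and 5 and at most 1.29 CPM in the other 8 libraries. Against the labelled dissection, the 7 lens markers summed to 87320 CPM in WT replicate 4, 22190 in KO replicate 3 and 3050 in KO replicate 6, and to 5.06 to 71.5 in the other 8. The corneal keratin *Krt12* was at 2956 to 3514 CPM in WT replicates 2 and 4 and KO replicates 1 to 3, at 406 to 710 in WT replicates 3 and 5 and KO replicates 4 to 6, and at 4.26 in WT replicate 1. The tissue's own cell types were present in both genotypes: rod markers summed to 24795 to 38846 CPM in WT and 29120 to 39432 in KO, cone markers to 692 to 819 and 709 to 789, Müller glia markers to 2804 to 3217 and 2745 to 3105, and RPE markers to 914 to 1241 and 838 to 1151. The column names of the study's own table divide the libraries into one series named by mouse number (WT replicates 1 and 2, KO replicates 1 to 3) and one named by age (WT replicates 3 to 5, KO replicates 4 to 6), and what else differed between the series is not given in the sources used here.

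Per length of transcript, *Igfbp5* had the highest level of the 9 genes, with a geometric mean of 115 FPKM (fragments scaled to transcript length and library total) over 11 libraries. It was followed by *Igfbp7* at 92.5, *Igfbp2* at 63.8, *Igfbp4* at 42.9, *Igfbp6* at 24.98, *Igf1r* at 13.1, *Igfbp3* at 12.8, *Igf2r* at 8.62 and *Igf1* at 7.48 FPKM. Neighbours in this order were compared within libraries by a two-sided exact sign-flip permutation test, adjusted over 8 pairs, and 6 pairs differed at the 0.05 level. The clearest steps, each present in 11 of 11 libraries, were *Igfbp4* over *Igfbp6* (1.72-fold) and *Igfbp3* over *Igf2r* (1.48-fold), both with an exact adjusted p = 0.00391. *Igfbp5* and *Igfbp7* were not told apart (1.25-fold, higher in 8 of 11 libraries, exact adjusted p = 0.122), nor were *Igf1r* and *Igfbp3* (1.03-fold, 6 of 11 libraries, exact adjusted p = 0.861). The order depends on the length assigned to a gene: with CPM over the length of all annotated exons, *Igf1r* came last, *Igfbp4* and *Igfbp6* were not told apart (1.08-fold, exact adjusted p = 0.379) and *Igfbp5* was above *Igfbp7* (1.40-fold, exact adjusted p = 0.0324), and 7 pairs differed.

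**Figure D1:**
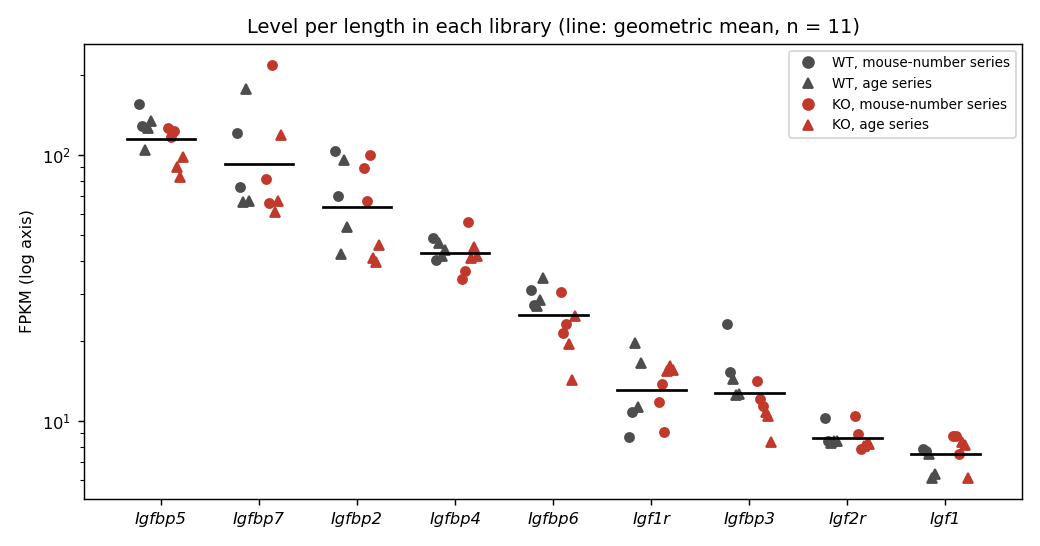
FPKM (log axis) of each gene in the 5 WT (grey) and 6 KO (red) libraries, ordered by the geometric mean over 11 libraries (line), with circles for the mouse-number series and triangles for the age series. *Igfbp5* lies at the top with a mean of 115 FPKM and *Igf1* at the bottom with 7.48 FPKM.

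*Igfbp5* made up 33.6% ± 4.78 (SD, n = 5) of the summed FPKM of the 6 binding proteins in WT and 31.4% ± 4.74 (n = 6) in KO. *Igfbp3* made up 4.02% ± 0.919 in WT and 3.37% ± 0.848 in KO. The share of *Igfbp7* was 36.9% in WT replicate 4, 41.1% in KO replicate 3 and 35.1% in KO replicate 6, the 3 libraries with lens markers, and at most 25.9% in the others.

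*Igfbp3* (chr11:7206086-7213923, minus strand) encodes the main carrier of IGFs in serum. Its level was 54.4, 36.5, 32.4, 34.3 and 29.1 CPM in WT replicates 1 to 5, and 33.9, 28.0, 26.8, 24.4, 23.2 and 18.99 CPM in KO replicates 1 to 6. The groups overlapped only through KO replicate 1, and 5 of 6 KO libraries were below the lowest WT library. The means were 37.3 CPM ± 9.90 (SD, n = 5) in WT and 25.9 CPM ± 5.02 (n = 6) in KO, a log2 fold change of -0.53 (SE 0.19). Without WT replicate 1, the highest library, the log2 fold change was -0.35, and without KO replicate 1 it was -0.62.

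*Igfbp6* (chr15:102144362-102149511, plus strand) encodes the binding protein that prefers IGF-2. It was at 32.9, 29.5, 27.4, 35.1 and 35.8 CPM in WT replicates 1 to 5, and at 14.4 to 32.8 CPM in KO with a median of 23.6. Again KO replicate 1 alone reached into the WT range. The means were 32.1 CPM ± 3.63 and 23.3 CPM ± 6.15, a log2 fold change of -0.46 (SE 0.19).

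*Igfbp5* (chr1:72857932-72874884, minus strand), a binding protein that associates with extracellular matrix, was at 928, 781, 595, 871 and 786 CPM in WT replicates 1 to 5. In KO it ran from 471 to 766 CPM with a median of 632. The low WT library, replicate 3, lay inside the KO range, and 3 KO libraries were below it. The means were 792 CPM ± 126 and 626 CPM ± 123, a log2 fold change of -0.34 (SE 0.20).

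*Igfbp2* (chr1:72824503-72852474, plus strand), the neighbour of *Igfbp5* on the chromosome, varied widely in both groups. It was at 130, 88.9, 51.1, 139 and 66.0 CPM in WT replicates 1 to 5 and at 47.2 to 126 CPM in KO, median 69.7, and the groups overlapped over most of their range. The log2 fold change was -0.26 (SE 0.34), and leaving out 1 library moved it from -0.44 (without KO replicate 3) to -0.07 (without WT replicate 4).

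*Igfbp4* (chr11:99041244-99054392, plus strand), a binding protein known to inhibit IGF action until it is cleaved by PAPP-A, was even across libraries. It was at 128, 109, 112, 123 and 114 CPM in WT replicates 1 to 5 and at 95.6 to 150 CPM in KO, median 107, with KO replicate 3 the highest. The log2 fold change was -0.06 (SE 0.13).

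*Igfbp7* (chr5:77349240-77408041, minus strand) had the widest range, 3.74-fold between the highest and the lowest library. It was at 130, 82.2, 68.3, 220 and 70.4 CPM in WT replicates 1 to 5 and at 88.3, 70.1, 235, 62.9, 68.6 and 124 CPM in KO replicates 1 to 6. It averaged 193 CPM ± 60.5 (n = 3) in the libraries with lens markers over 1000 CPM and 80.1 CPM ± 21.7 (n = 8) in the others. WT replicate 1, with few lens markers, was above KO replicate 6, and the part of lens tissue in these levels was not tested. The log2 fold change was -0.08 (SE 0.41), and leaving out 1 library moved it from -0.46 (without KO replicate 3) to 0.31 (without WT replicate 4).

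*Igf1* (chr10:87858265-87937042, plus strand), the ligand, had a higher mean CPM in KO than in WT, the one gene of the 9 to do so on this scale. By FPKM, *Igfbp7* (102.4 in KO, 101.8 in WT) and *Igf1r* (13.6 in KO, 13.4 in WT) also had slightly higher means in KO. *Igf1* was at 39.5, 47.6, 39.7, 43.7 and 37.2 CPM in WT replicates 1 to 5 and at 34.5 to 54.6 CPM in KO, median 45.7, so that the WT range lay inside the KO range. The means were 41.5 CPM ± 4.10 and 46.3 CPM ± 6.99, a log2 fold change of 0.16 (SE 0.13).

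The receptors had nearly equal means in both genotypes. *Igf1r* (chr7:67952827-68233668, plus strand) was at 38.8, 48.7, 84.0, 58.1 and 71.8 CPM in WT replicates 1 to 5 and at 40.6 to 68.3 CPM in KO, median 63.5, a log2 fold change of -0.02 (SE 0.21). The sign for *Igf1r* was the other one in 11 of 24 alternatives, which ran from -0.14 to 0.24. *Igf2r* (chr17:12682406-12769664, minus strand) was at 89.9, 75.01, 68.6, 84.3 and 70.9 CPM in WT and at 67.6 to 90.8 CPM in KO, median 69.4, a log2 fold change of -0.07 (SE 0.12). It varied least of the 9, with 1.34-fold between the highest and the lowest library. Of the 4 genes with a seed match, shown above, *Igfbp5* had a log2 fold change below 0 and *Igf1* one above 0 in all 24 alternatives. Of the genes without a match, *Igfbp2*, *Igfbp3*, *Igfbp4* and *Igfbp6* were also below 0 in all 24, and *Igfbp7* turned sign in 6. The alternatives share libraries. *Igf1r* and *Igf2r* lay within 1 SE of 0 over all 11 libraries, but not in every alternative. *Igf1r* was at 0.24 (SE 0.22) within the mouse-number series, and *Igf2r* at -0.14 (SE 0.11) without KO replicate 1.

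**Figure D2:**
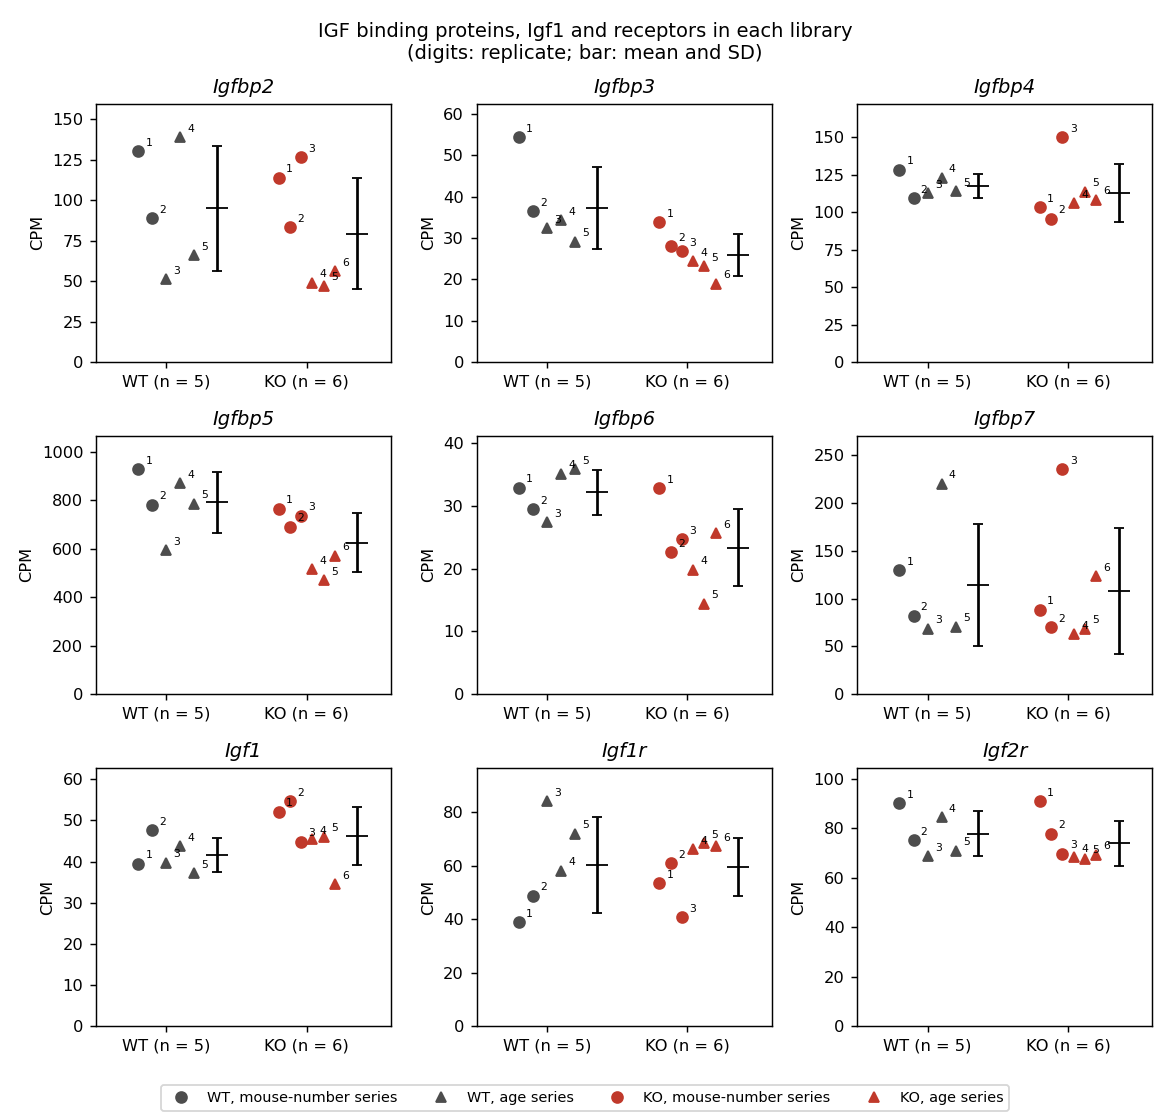
CPM of each gene in every library, WT in grey and KO in red, with replicate digits, the mean and SD as bars, circles for the mouse-number series and triangles for the age series. For *Igfbp3*, 5 of 6 KO libraries lie below the lowest WT library, 29.1 CPM, and for *Igfbp7* WT replicate 4 and KO replicate 3 stand above the others.

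All 9 genes passed the filter of 1 CPM in 5 libraries. The log2 fold change was below 0 for 8 of 9, with a median of -0.08, beside 48.9% of 15767 genes below 0 and a median of 0.00 over all genes tested. This count moves with the scaling: without TMM factors, 6 of 9 were below 0 with a median of -0.03 and a median of 0.05 over all genes. By the mean of log2(FPKM + 0.1) in each genotype, 7 of 9 were. On that log scale *Igfbp7*, slightly higher in KO by mean FPKM, was at -0.04. By edgeR's likelihood-ratio test at an adjusted p under 0.1, 0 of 9 were called, beside 0.00634% of all genes (1 gene, *Xist*). For 0 of 9 were the KO and WT libraries fully apart, beside 0.184% of all genes. Without WT replicate 3 the groups were apart for 1 of 9 (*Igfbp5*, beside 0.210% of all genes lower in KO), and without KO replicate 1 for 2 of 9 (*Igfbp3* and *Igfbp6*, beside 0.446%). Since the genes were chosen with this contrast known, these counts are given without a reading.

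The division into series did not enter the choice of the genes and was examined after the values were seen. With genotype in the fit, edgeR's adjusted p was under 0.1 for 3 of 9 genes, a share close to the 36.3% of all genes called. *Igfbp2* was higher in the mouse-number series by a log2 of 0.77 (SE 0.26, adjusted p = 0.0193) and *Igfbp3* by 0.46 (SE 0.13, adjusted p = 0.0033). *Igf1r* was lower in that series, by a log2 of -0.52 (SE 0.14, adjusted p = 0.00218). *Igf1r* was at 38.8 to 60.8 CPM in the 5 mouse-number libraries and at 58.1 to 84.0 CPM in the 6 age libraries, with a small overlap. Fibroblast markers moved with the series too, at 1720 to 2721 CPM in the mouse-number libraries and 738 to 1343 CPM in the age libraries other than WT replicate 4, which had 3711 CPM. So did corneal and conjunctival markers, at 3274 to 8886 CPM and 1196 to 2425 CPM, with 7418 CPM in WT replicate 4. Microglia markers were at 128 to 248 CPM and 80.6 to 106 CPM, with 139 CPM in WT replicate 4. Müller glia markers were lower in the mouse-number series, at 2745 to 2937 CPM against 2952 to 3217 CPM, without overlap. Rod markers were at 24795 to 34940 CPM against 35732 to 39432 CPM, with 29058 CPM in WT replicate 4. The part of these cell types in these differences was not tested.

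Within the mouse-number series (2 WT, 3 KO), the log2 fold change between the genotypes was -0.62 (SE 0.22) for *Igfbp3* and -0.22 (SE 0.19) for *Igfbp5*. For these 2 of 9 genes all KO libraries lay under the lowest WT library, beside 10.7% of all genes. Within the age series (3 WT, 3 KO) this held for 3 of 9, beside 6.07% of all genes: *Igfbp3* at -0.52 (SE 0.15), *Igfbp5* at -0.53 (SE 0.24) and *Igfbp6* at -0.71 (SE 0.24). In the mouse-number series *Igfbp6* was at -0.23 (SE 0.21), with overlapping groups. *Igfbp2* was at -0.02 (SE 0.25) in the mouse-number series and -0.74 (SE 0.36) in the age series, and *Igfbp7* at 0.31 (SE 0.54) and -0.48 (SE 0.51). In the age series fibroblast markers were also lower in each KO library (738 to 1051 CPM, against 1297 to 3711 in WT), as were mural cell markers (336 to 370, against 394 to 534). In the mouse-number series these ranges overlapped, while adipocyte markers (12.9 to 206 CPM in KO, 242 to 426 in WT) and microglia markers (128 to 130, against 131 to 248) did not. The part of these tissues in the differences was not tested. With the series as a covariate over all 11 libraries, *Igfbp3* was at -0.57 (SE 0.13) and 1 of 9 genes, *Igfbp3*, was called, beside 0.0634% of all genes. *Igfbp3* was chosen on this same contrast in these libraries, so nothing is read from that call.

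Libraries were also left out by lens markers or by *Krt12*, each on its own, a choice made after seeing the data. Neither set is free of both. With lens markers under 1000 CPM, WT replicate 2 and KO replicates 1 and 2 stayed in, with *Krt12* at 3038 to 3514 CPM. With *Krt12* under 1000 CPM, KO replicate 6 stayed in, with lens markers at 3050 CPM, and *Krt12* itself was at up to 710 CPM. In the 8 libraries with lens markers under 1000 CPM, the log2 fold change was -0.47 (SE 0.23) for *Igfbp3*, -0.33 (SE 0.22) for *Igfbp5*, -0.48 (SE 0.25) for *Igfbp6* and 0.28 (SE 0.14) for *Igf1*. That of *Igfbp7* was then -0.27 (SE 0.23) and that of *Igf2r* 0.01 (SE 0.15), and the groups were fully apart for 0 of 9 genes, beside 0.690% of all genes. The 6 libraries with *Krt12* under 1000 CPM were WT replicates 1, 3 and 5 and KO replicates 4 to 6. All 3 of these WT libraries had high *Xist* and no KO library had, so that genotype and sex cannot be told apart there. WT replicate 1, the one library of the mouse-number series among them, had the highest *Igfbp3* (54.4 CPM) and *Igfbp2* (130 CPM). In this set *Igfbp3* was at -0.80 (SE 0.28), *Igfbp2* at -0.70 (SE 0.35), *Igfbp5* at -0.57 (SE 0.21) and *Igfbp6* at -0.68 (SE 0.25). With CPM rescaled within the set, the groups were apart for *Igfbp3*, *Igfbp4*, *Igfbp5*, *Igfbp6* and *Igf2r*, 5 of 9 beside 5.84% of all genes. On the CPM printed above, *Igfbp4* and *Igf2r* overlapped and 3 of 9 were apart. Fibroblast markers did not overlap in this set either (1297 to 2158 CPM in WT, 738 to 1051 in KO), nor did mural cell markers (394 to 445 and 336 to 370). Among the 8 libraries with *Xist* under 10 CPM (2 WT, 6 KO), *Igfbp3* was at -0.45 (SE 0.21), and the groups were apart, lower in KO, for 2 of 9 (*Igfbp3* and *Igfbp5*), beside 2.67% of all genes. Microglia markers were apart there too, at 131 to 139 CPM in WT and 80.6 to 130 in KO. The part of these cell types in the differences was not tested.

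**Figure D3:**
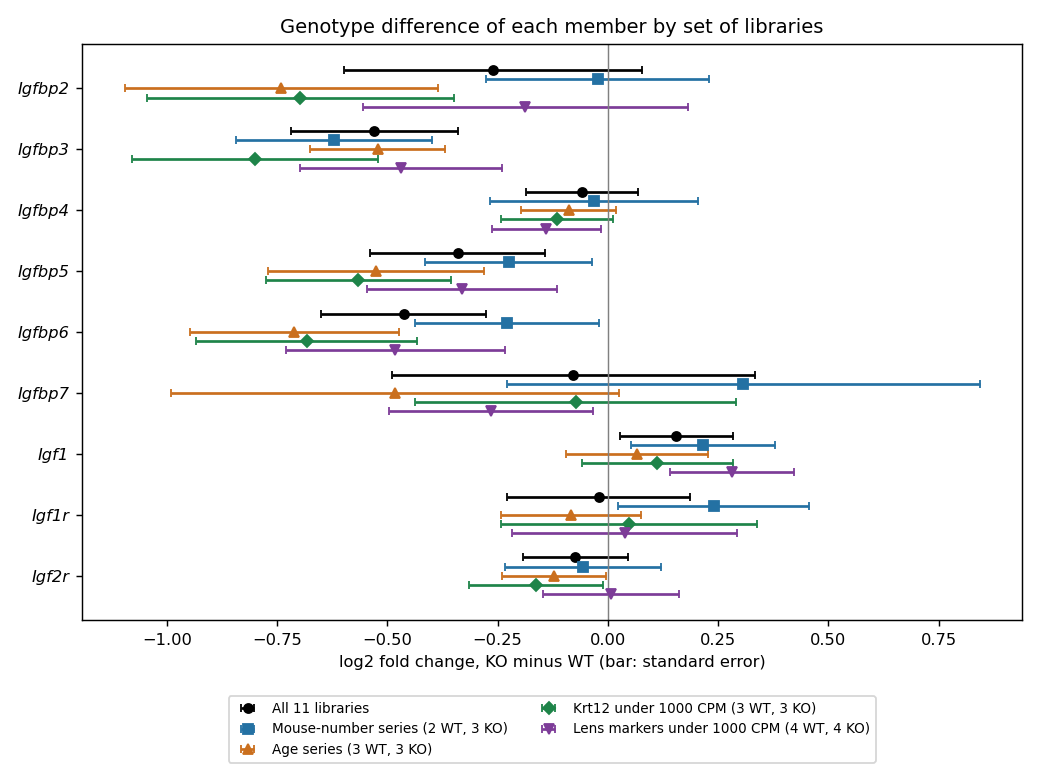
Log2 fold change (KO minus WT, bar: SE) of each gene in all 11 libraries, in each series, in the libraries with *Krt12* under 1000 CPM and in those with lens markers under 1000 CPM. *Igfbp2*, *Igfbp3*, *Igfbp4*, *Igfbp5* and *Igfbp6* lie below 0 in all 5 sets, which share libraries. *Igfbp7*, *Igf1r* and *Igf2r* lie on both sides of 0.

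Of 53 other genes of the pathway, 47 passed the filter, and 27 of these had a log2 fold change below 0, with a median of -0.03. By edgeR's likelihood-ratio test 0 of 47 were called, also by the quasi-likelihood test and by DESeq2, and 1 had an unadjusted p under 0.05 by each of the 3, beside 2.09% of all genes by the likelihood-ratio test. That gene was *Htra1*, a secreted serine protease known to cleave IGF binding proteins. It was at 132, 84.0, 89.4, 129 and 86.6 CPM in WT replicates 1 to 5 and at 69.5 to 95.6 CPM in KO, and the groups overlapped. Its log2 fold change was -0.35 (SE 0.16, edgeR adjusted p = 1.00).

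The second ligand, *Igf2*, was at 86.9 CPM ± 10.9 in WT and 74.8 CPM ± 10.05 in KO, a log2 fold change of -0.22 (SE 0.13). The insulin receptor *Insr* was at 133 CPM ± 10.8 and 131 CPM ± 7.33, a log2 fold change of -0.02 (SE 0.10). The adaptors *Irs1* and *Irs2*, which couple the receptors to PI3K, had log2 fold changes of 0.00 (SE 0.20) and -0.18 (SE 0.16). *Pappa*, the protease that cleaves IGFBP4, was at -0.41 (SE 0.30), and its inhibitor *Stc1* at 0.11 (SE 0.22). The growth hormone receptor *Ghr* was at -0.19 (SE 0.34) and *Socs2*, a feedback inhibitor of that receptor, at -0.05 (SE 0.15). Each of these 8 genes had an edgeR adjusted p of 1.00. *Igfbp1* was at 0.302 to 1.25 CPM and did not pass the filter. Of the 20 genes of the PI3K-AKT-mTOR branch 7 were below 0, and of the 5 MAPK genes 3 were, with none called in either.

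Some of the genes also varied together across libraries after the genotype means were taken out, and others did not. Pearson r was 0.037 for *Igfbp4* and *Igfbp6* and -0.014 for *Igfbp6* and *Igf1*. The pairs given in full below had the highest and the lowest r among the 9 genes. These correlations describe 11 libraries that share their scaling and their division into series. *Igfbp2* and *Igfbp5* varied together (Pearson r = 0.934, Spearman rho = 0.900, and r = 0.911 over 9 libraries without the 2 farthest). *Igf1r* went the other way from *Igfbp2* (r = -0.825, rho = -0.818, and r = -0.712 over 9 libraries). The genes most like each of the 9 were picked as the highest r over all 15767 genes tested. The r that such a search gives by chance was not worked out, so the names are given as a description. The genes most like *Igfbp3* were *Slc45a3* (r = 0.975), *Rab40b* (r = 0.966) and *Lsp1* (r = 0.963). The nearest gene was *Rcn1* for *Igfbp2* (r = 0.983), *Cldn5* for *Igfbp4* (0.948), *Vcp* for *Igfbp5* (0.987), *Cdc25a* for *Igfbp6* (0.911) and *Col4a6* for *Igfbp7* (0.980). For *Igf1* it was *Vps36* (0.945), for *Igf1r* *Ep300* (0.990) and for *Igf2r* *Lrg1* (0.973).

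Markers of other tissues differed between libraries of the same genotype. Fibroblast markers summed to 1297 to 3711 CPM in WT and 738 to 2721 in KO, mural cell markers to 394 to 534 and 336 to 487, and endothelial markers to 211 to 344 and 203 to 291. Adipocyte markers ran from 12.96 to 426 CPM in WT and 11.9 to 206 in KO, skeletal muscle markers from 976 to 7951 and 771 to 8063, and corneal and conjunctival markers from 1196 to 7679 and 1609 to 8886. Blood markers ran from 198 to 1940 CPM and 145 to 1182, and microglia markers from 95.7 to 248 and 80.6 to 130. No marker was under 1 CPM in every library, and over all 11 libraries the ranges of the genotypes overlapped for each list. Their part in the levels of the binding proteins was not tested.

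**Figure D4:**
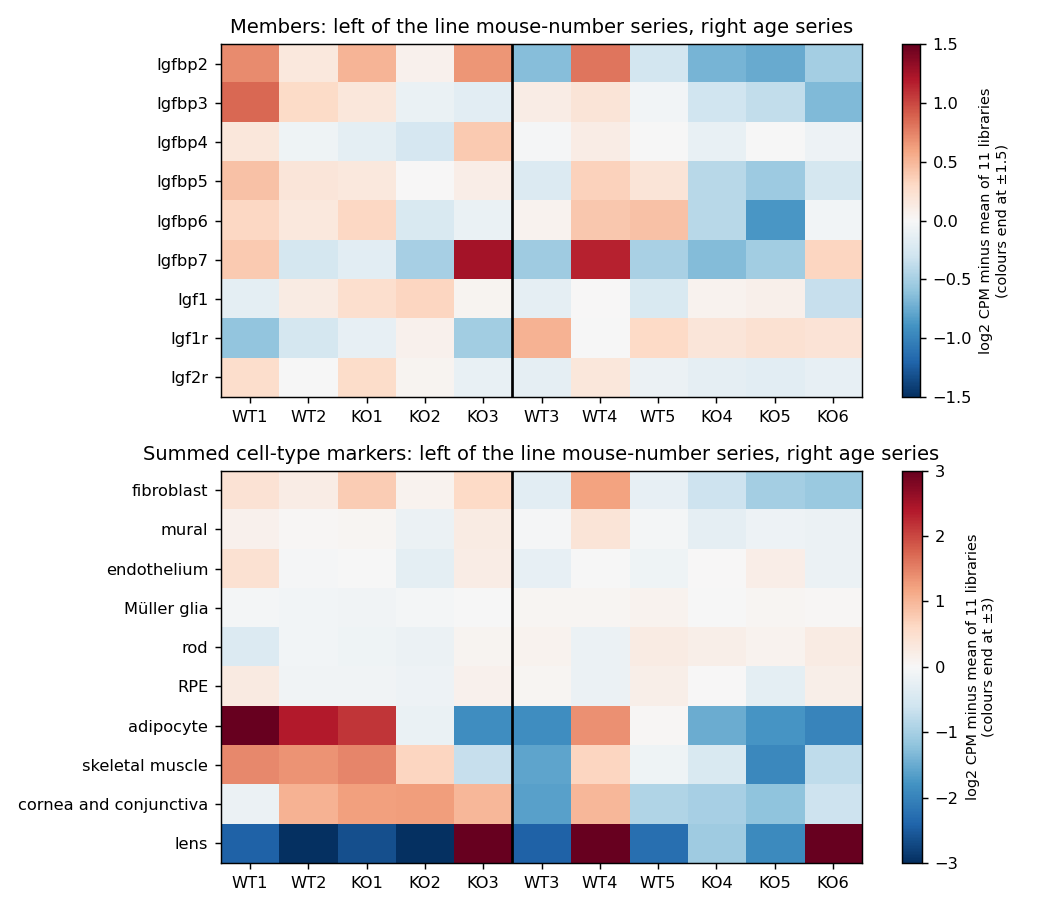
Log2 CPM minus the mean of 11 libraries (colour) for the 9 genes (top) and for 10 summed marker lists (bottom), each column a library, with the mouse-number series left of the line and the age series right of it. WT replicate 4 and KO replicate 3 are highest in both *Igfbp7* and the lens markers, and *Igf1r* is mostly higher on the right.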

How the data were processed

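Total RNA was made into TruSeq libraries and sequenced in pairs of 100-base reads. The authors quantified genes with RSEM 1.2.19 and deposited, per library, expected counts and FPKM, which are scaled to gene length and library size. Each library is a separate animal by the study's methods. Expected counts were rounded and fitted with edgeR 4.0.16 (R 4.3.3; TMM scaling, 1 CPM or more in 5 or more libraries, likelihood-ratio test, Benjamini-Hochberg adjustment over 15767 genes, threshold 0.1), the kind of model the study names. At the same threshold the study reported more genes that differed than were called here. CPM are on TMM-scaled library sizes, and SE are those of the fit. Levels between genes were compared as log2(FPKM + 0.1) of the deposited FPKM. The script was tested on simulated data, in which 100 genes changed by a log2 of 1 and 100 by a log2 of 2. It recovered 91 and 96 of them, and 33 of 220 calls were false, a larger share than the threshold of 0.1 allows. Symbols and positions were from Gencode M21 (95.4% of identifiers matched).

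Libraries were matched to the series in the study's table by proportional counts over 63 genes (coefficient of variation at most 0.193% for the match and at least 24.5% for the next best). The 9 genes, the pathway and marker lists and the alternatives were chosen with earlier results of these data known. Named were the 9 genes, 9 pathway genes set by hand, any other pathway gene with an unadjusted p under 0.05, check genes, and the genes most like each of the 9 (3 for *Igfbp3*, 1 for the others). Alternatives were the quasi-likelihood test, DESeq2 1.42.0, other scalings and filters, FPKM, a replicate block, the series, and subsets of libraries.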

Additional observations from a re-analysis of the deposited data

Results flagged for a closer look

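*Insr*, the insulin receptor, was at 116 CPM in KO replicate 3 and at 133 to 135 CPM in the other 5 KO libraries. On the log2 scale the gap to the nearest library was 0.88 of the range of the group, above Dixon's critical value of 0.625 for 6 samples. Of 36 groups of libraries examined (18 genes in each genotype) 1 stood out in this way, and chance gives about 1 in 20. KO replicate 3 was also one of the 3 libraries with lens markers over 1000 CPM. In the others, WT replicate 4 and KO replicate 6, *Insr* was at 138 and 135 CPM. The part of lens tissue in the value of KO replicate 3 was not tested.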

How the results depend on the processing

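The log2 fold change of each of the 9 genes moved by less than 1 SD between replicates under all 24 alternatives. That SD is the spread of single libraries, which is wider than the SE of the fold change. Some genes moved by more than 1 SE: *Igfbp3* from -0.53 (SE 0.19) to -0.80 with *Krt12* under 1000 CPM, and *Igfbp2* from -0.26 (SE 0.34) to -0.74 within the age series. The sign turned in 11 for *Igf1r*, 6 for *Igfbp7* and 1 for *Igf2r*. Under all 24, 0 pathway genes were called. Over all genes, 1 was called as reported, 0 by the quasi-likelihood test (446 at an unadjusted p under 0.05), 2 by DESeq2, 2 with a filter of 1 count in any library, 10 with the series as a covariate, 2 within the mouse-number series, 36 within the age series, 3 with *Xist* under 10 CPM and 13 with *Krt12* under 1000 CPM. Leaving out each library gave 1 to 11 (11 without KO replicate 1, 2 without WT replicate 2). Genes of the 9 with fully separate groups went from 0 to 2 within the mouse-number series, beside 10.7% of all genes lower in KO. They went to 3 within the age series (beside 6.07%) and 2 with *Xist* under 10 CPM (beside 2.67%). With *Krt12* under 1000 CPM they went to 5, beside 5.84%, and to 3 without rescaling. They ranged from 0 to 2 leaving out each library (*Igfbp5* without WT replicate 3, beside 0.210% of all genes, and *Igfbp3* and *Igfbp6* without KO replicate 1, beside 0.446%). Of the neighbouring pairs in the FPKM order, 6 differed as reported and 0 in WT or KO libraries alone, where the smallest possible exact permutation p was 0.0625 and 0.03125 before adjustment. With exon length 7 differed, and in the libraries with lens markers under 1000 CPM 4 did.

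With the replicate number as a block (KO replicate 6 left out) 10 genes were called and *Igfbp3* had a log2 fold change of -0.43 (SE 0.12). Libraries of the same number were also of the same series, except for replicate 3, so block and series are partly the same division. Deviations of WT and KO libraries with the same number correlated at a mean r of 0.223 (-0.332 to 0.633). For different numbers the mean r was -0.045 (-0.695 to 0.729). Of 5 WT libraries, 3 were most like the KO library of their own number. The planned division of CPM by effective length was not run, because effective lengths are not given in the files used here, and exon length took its place after seeing the data. The series, *Krt12* and lens markers differ between libraries of both genotypes. The cause of these movements was not tested.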
